A study of Drosophila melanogaster with 2 samples.

Results

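The 6 nearly identical Hsp70 genes of *Drosophila melanogaster*, the noncoding heat shock gene Hsromega and the small heat shock gene Hsp26 were followed in ovaries of CG5508 mutants. They were picked by name from the authors' lists of features that differed between genotypes, and all 8 were found. The 4 lists used together held 97 genes among 295 features, which also include transposon insertions and piRNA cluster strands. CG5508 is minotaur, which the study's title links to the making of primary piRNAs.

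RNA was sequenced from ovaries of flies homozygous for z3-5967, a CG5508 mutation, and of flies heterozygous for it, with 1 library per genotype. Both groups therefore carry the allele, and no wild-type ovaries were analysed here. The flies were 3 to 5 days old and came from stocks held at 25 °C, and no heat treatment is given in the labels. The strain labels spell the gene GC5508 and the titles CG5508.

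Hsp70 is a chaperone that holds unfolded proteins with the help of ATP. In flies its genes are almost silent without stress and are switched on within minutes of heat by the factor Hsf. Hsromega is raised by heat at the same time and makes long nuclear RNAs that contain tandem repeats and gather RNA-binding proteins into nuclear speckles. Hsp26 is a small chaperone that prevents aggregation, is also induced by heat, and is made without heat by the nurse cells of the ovary.

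The authors counted reads in 2 ways, with uniquely mapped reads alone and with reads of up to 10 mappings. Hsp26 was lower in homozygous ovaries with either treatment. The 6 Hsp70 copies and Hsromega were listed as higher with up to 10 mappings and were in neither list of uniquely mapped reads. Of all entries adjusted together with up to 10 mappings, the authors called 1.55% higher and 0.114% lower. With uniquely mapped reads they called 0.515% higher and 0.137% lower. The members were named with these calls known, so their number among the calls is a description.

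With 1 library per genotype, no difference below has a replicate check, and each range in parentheses is an exact 95% interval that covers counting error only. In whole ovaries, fewer cells of a type and less RNA per cell cannot be told apart. The lists hold part of each library, so total depth is unknown. The size factor behind the values was 1.34 times as large for the homozygous as for the heterozygous library, which is a scaling and not a measure of total depth.

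The Hsp70 copies lie on chromosome arm 3R at 2 places. In the dm6 build, Hsp70Aa (FBgn0013275) spans 11954163 to 11956544 on the minus strand and Hsp70Ab (FBgn0013276) spans 11958535 to 11960909 on the plus strand. They point away from each other across 1.99 kb. Hsp70Ba (FBgn0013277) lies 504.5 kb further on, from 12465453 to 12467776 on the minus strand. After another 34.7 kb, Hsp70Bbb (FBgn0051354, 12502510 to 12504856), Hsp70Bb (FBgn0013278, 12505793 to 12508139) and Hsp70Bc (FBgn0013279, 12509076 to 12511461) follow in a row on the plus strand. These last copies are 936 bases apart. Each copy has 1 annotated transcript in 1 exon, of 2324 to 2386 bases, with a coding part of 1923 or 1926 bases.

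**Figure D1:**
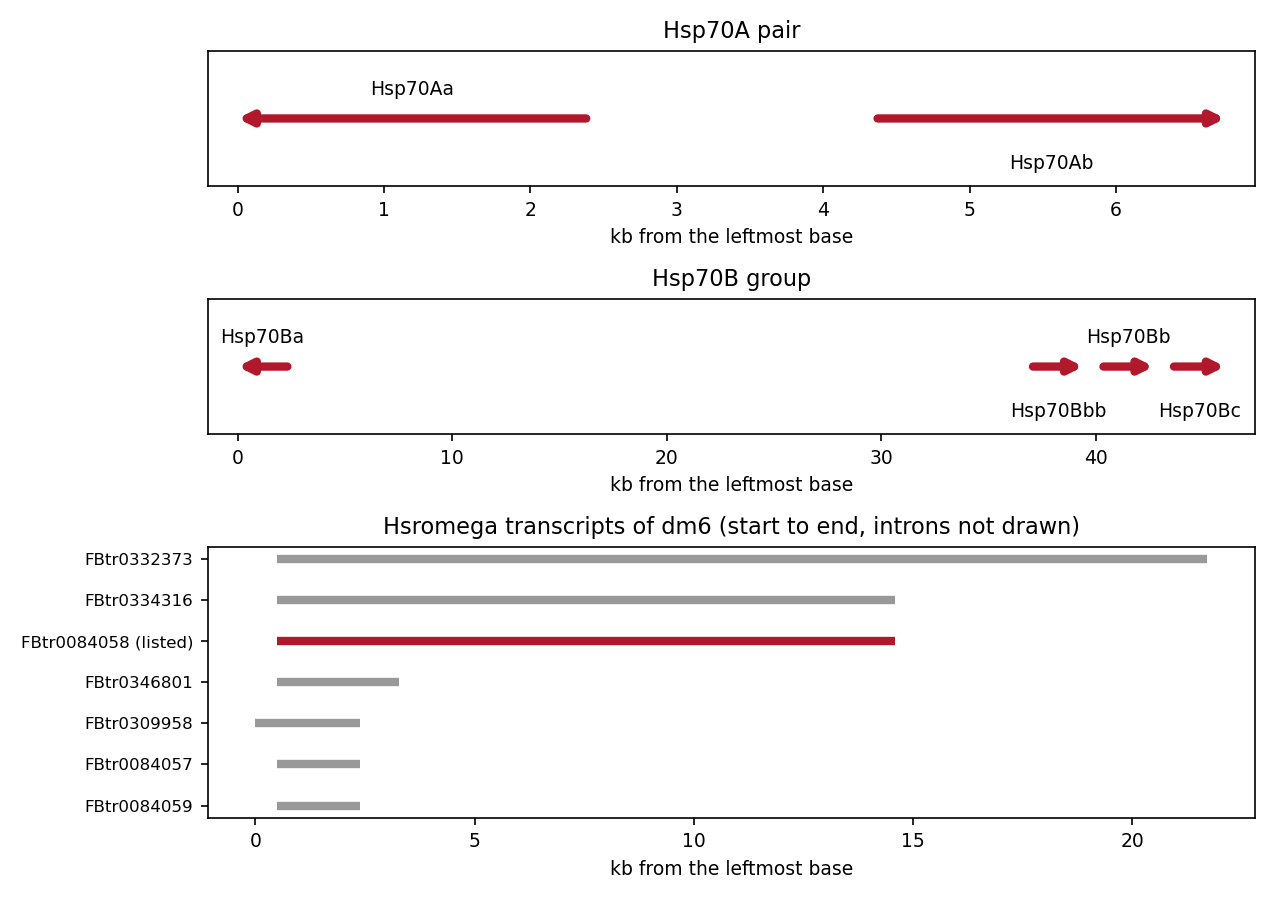
The Hsp70A pair, the Hsp70B group and the 7 annotated Hsromega transcripts, drawn to scale in kb from the leftmost base of each panel (dm6). Arrows show the direction of each Hsp70 gene, and the red Hsromega bar is FBtr0084058, the listed transcript, which ends 11310 bases past the longest of the 4 short ones.

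The reads counted at each Hsp70 copy were several times more numerous in the homozygous library. The level per library below is the normalized read number implied by the mean and fold in the authors' deposited table. The highest count was at Hsp70Bb, with 375 normalized reads in homozygous and 92.7 in heterozygous ovaries. Hsp70Ba had 349 in homozygous and 84.6 in heterozygous ovaries. Hsp70Bbb had 326 in homozygous and 75.3 in heterozygous ovaries. In all of these the homozygous level was more than 4 times the heterozygous one.

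The other copies were close to each other. Hsp70Bc had 323 normalized reads in homozygous and 71.8 in heterozygous ovaries. Hsp70Aa had 308 in homozygous and 69.5 in heterozygous ovaries. Hsp70Ab had 306 in homozygous and 69.5 in heterozygous ovaries. Over the 6 copies the levels ran from 306 to 375 in homozygous and from 69.5 to 92.7 in heterozygous ovaries. The copies can share reads, were all called higher and are not replicates.

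Hsp70Bc had the largest fold of the copies in the authors' deposited table, 4.49-fold higher in homozygous ovaries (3.43 to 5.98). Hsp70Aa was 4.43-fold higher (3.36 to 5.93) and Hsp70Ab 4.41-fold (3.34 to 5.89). Hsp70Bbb was 4.33-fold (3.32 to 5.73), Hsp70Ba 4.13-fold (3.21 to 5.38) and Hsp70Bb 4.05-fold (3.18 to 5.21) higher. These intervals overlap for all 6 copies, and the median fold was 4.37. The authors' adjusted p in the deposited table ran from 0.00836 for Hsp70Bc to 0.0119 for Hsp70Ab, from DESeq without replicates.

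**Figure D2:**
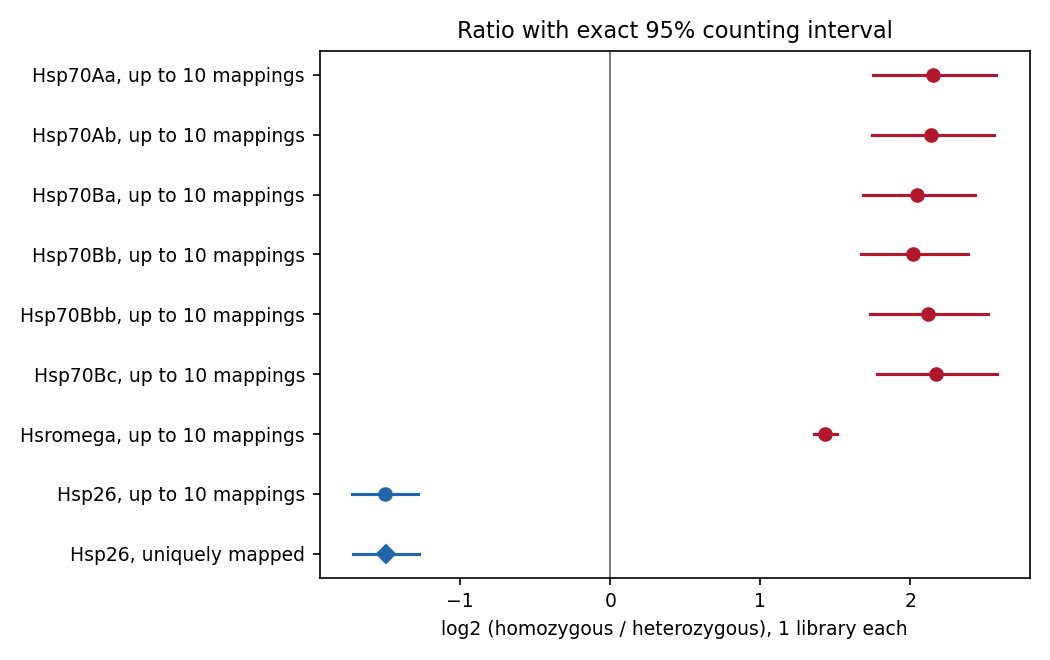
The log2 ratio of homozygous over heterozygous levels for each member (points; diamond for uniquely mapped reads) with its exact 95% counting interval (lines), 1 library per genotype. The 6 Hsp70 copies lie between 2.02 and 2.17, Hsromega lies at 1.43, and Hsp26 lies at -1.50 with up to 10 mappings and -1.49 with uniquely mapped reads.

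The copies were also nearly equal in reads. Dividing the implied levels by the value of 1 read gave 355 to 435 reads per copy in the homozygous library and 60 to 80 in the heterozygous one. Hsp70Aa and Hsp70Ab had 60 heterozygous reads each and differed by 2 homozygous reads, 357 for Hsp70Aa and 355 for Hsp70Ab. Hsp70Bb held 80 homozygous and 20 heterozygous reads more than Hsp70Ab. The Hsp70A pair had 60 heterozygous reads per copy, and the 4 Hsp70B copies had 62 to 80. A read that matches several copies can be counted at each, so the 6 values are not independent, cannot be added and do not tell which copy was transcribed.

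With uniquely mapped reads, 0 of the 6 copies was listed as higher or lower, and their levels there were not analysed here. The raw and adjusted p-values in the authors' deposited tables imply that 21957 entries were adjusted together with uniquely mapped reads and 23690 with up to 10 mappings. The ranks in the lists leave no gap, so a copy that was among the 21957 had an adjusted p above 0.0933, the largest listed. Whether any copy held uniquely mapped reads cannot be told from the lists.

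Hsromega (FBgn0001234, lncRNA:Hsromega in dm6) lies on 3R from 21296127 to 21317836 on the plus strand. Of its 7 annotated transcripts, 1 was listed, FBtr0084058, an unspliced RNA of 14086 bases from 21296621 to 21310706 that runs far past the short transcripts of 1176 to 2776 bases. It had 5418 normalized reads in homozygous and 2006 in heterozygous ovaries, as implied by the mean of 3712 and the fold in the authors' deposited table. These correspond to 6279 homozygous and 1731 heterozygous reads. Hsromega was thus 2.70-fold higher in homozygous ovaries (2.56 to 2.85), with an adjusted p of 0.00330 in the authors' deposited table. This was the smallest adjusted p of the 8 members.

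The counting interval of Hsromega lay below those of all 6 Hsp70 copies, and the median Hsp70 fold was 1.62 times that of Hsromega. A read from a repeated stretch may be counted more than once within Hsromega, in which case its interval is too narrow. No short Hsromega transcript was in any list. The same held for FBtr0334316, the spliced counterpart of FBtr0084058 with the same ends, and for the longer FBtr0332373. All these transcripts overlap FBtr0084058 on the same strand, so reads counted there may come from any of them. Which transcripts differed between genotypes was not tested. The sources used here do not say which of these the authors' dm3 annotation held.

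Hsp26 (FBgn0001225) lies on 3L from 9376418 to 9377427 on the minus strand in dm6, among other small heat shock genes. Its listed transcript, FBtr0076496, has 1 exon of 958 bases. With uniquely mapped reads it had 220 normalized reads in homozygous and 621 in heterozygous ovaries. These were 255 homozygous and 537 heterozygous reads. Hsp26 was 2.82-fold lower in homozygous ovaries (2.42 to 3.28), a log2 ratio of -1.49, with an adjusted p of 0.0431 in the authors' deposited table.

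With up to 10 mappings the deposited fold of Hsp26 was 2.83-fold lower in homozygous ovaries (2.43 to 3.30) with an adjusted p of 0.0466 in the authors' deposited table. The implied reads were again 255 for homozygous and 537 for heterozygous ovaries, a difference of 0 reads in each. If both lists hold the same libraries, counting reads of several mappings added no read to Hsp26. Those lists are titled for homozygous CG5508, but their per-library columns carry names that match neither sample. Because the Hsp26 reads were identical, the libraries were taken to be the same.

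**Figure D3:**
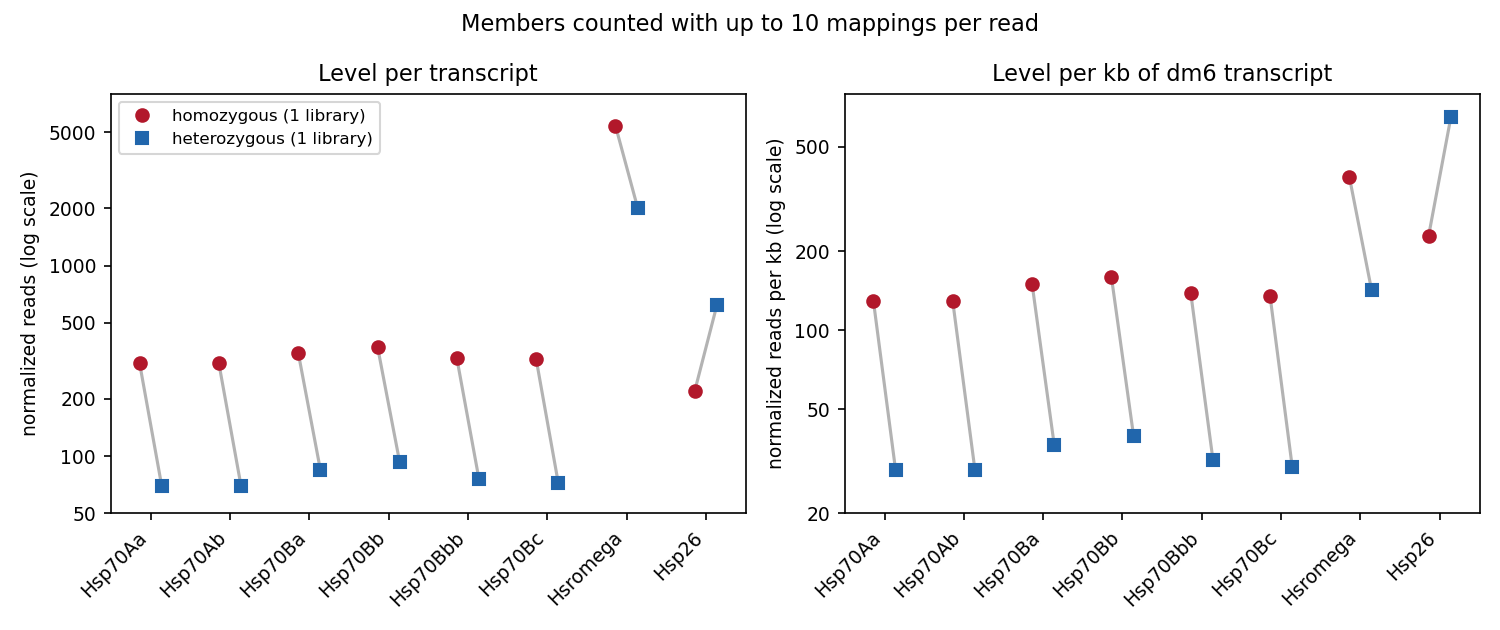
Normalized reads per transcript (left, log scale) and per kb of dm6 transcript (right, log scale) of each member with up to 10 mappings, in the homozygous (circles) and heterozygous (squares) library. Per kb, Hsp26 was highest in heterozygous ovaries at 650 and Hsromega was highest in homozygous ovaries at 385.

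The order of the members' levels differed between the libraries. Per kb of dm6 transcript with up to 10 mappings, Hsromega had 385 normalized reads in homozygous and 142 in heterozygous ovaries. Hsp26 had 230 normalized reads per kb in homozygous and 650 in heterozygous ovaries. The Hsp70 copies had 129 to 160 normalized reads per kb in homozygous and 29.2 to 39.5 in heterozygous ovaries. Hsromega was thus first in the homozygous library and Hsp26 first in the heterozygous one, with the Hsp70 copies last in both.

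The gap between Hsp26, normally made in ovaries, and the inducible Hsp70 was smaller in the homozygous library. This follows from the calls by which the members were picked, Hsp26 as lower and the Hsp70 copies as higher. It is therefore no separate result. Per kb, Hsp26 stood at 1.68 times the median Hsp70 copy in homozygous ovaries and at 20.9 times in heterozygous ovaries. Hsromega stood at 2.81 times the median Hsp70 copy in homozygous and at 4.58 times in heterozygous ovaries. These ratios rest on dm6 lengths and include reads that may be counted at several copies or repeats.

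Within the lists the members had moderate folds. Among the 270 features higher with up to 10 mappings the median fold was 12.1, and among the 72 genes it was 5.61. By fold the Hsp70 copies ranked 40 to 48 of these 72 genes, and Hsromega ranked 67. By mean level Hsromega ranked 7 of 72 genes. Among the higher features ordered by mean, the next above Hsromega was CG17684, 2.36-fold higher at a mean of 5274 normalized reads, and the next below was the insertion HeT-A{}6276 of a telomeric retrotransposon, 49.5-fold higher at a mean of 3543, both in the authors' deposited table.

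Of the 72 genes, 44 were listed as higher with up to 10 mappings alone, and 7 of these 44 were members. The members were picked with these calls known, so this count is fixed by the choice. Among the 7 are the 6 Hsp70 copies, which can share reads. Of all entries with up to 10 mappings, 1.55% were called higher. The median fold in the authors' deposited table was 5.40 for the 44 genes and 6.72 for the 28 genes higher with both read treatments. Hsp26 ranked 15 by fold among the 23 features lower with uniquely mapped reads, whose median was 3.47-fold. Among these features ordered by mean, the next above Hsp26 was CG13114, 2.99-fold lower at a mean of 426, and the next below was CG31926, 4.19-fold lower at a mean of 319 normalized reads.

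**Figure D4:**
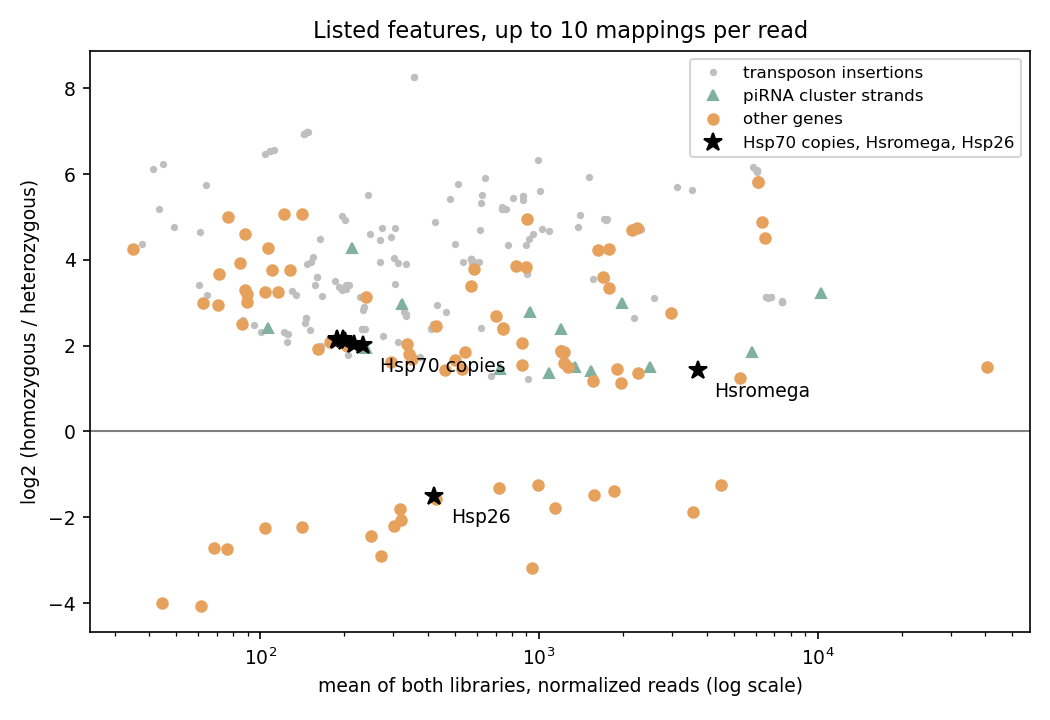
Mean of both libraries (normalized reads, log scale) against the log2 ratio of homozygous over heterozygous levels for the listed features with a finite ratio, up to 10 mappings. Stars mark the members: the 6 Hsp70 copies sit together just above 2, Hsromega at 1.43 with a higher mean, and Hsp26 at -1.50 among the lower genes.

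Other genes of the heat shock response were looked up from a list of 38 with an identifier, members included. Apart from the 8 members, none of them was in any list, which leaves 30 genes whose levels were not analysed here. They include Hsp68 and Hsp83, the fly Hsp90, the constitutive cognate Hsc70-4, the co-chaperone DnaJ-1 and the regulator Hsf. Hsp22, Hsp23, Hsp27, Hsp67Ba and Hsp67Bc, which lie 0.374 to 6.64 kb from Hsp26, were also in none. None of 30 genes of other stress responses was listed, among them glutathione transferases, metallothioneins and the Turandot genes. Of all entries, the authors called 1.55% higher and 0.114% lower with up to 10 mappings, and 0.515% and 0.137% with uniquely mapped reads. At these shares, 0 listed genes is close to the figure for all entries in both sets of 30. The alphagamma and aurora elements, repeats known from the Hsp70B locus, had 0 entries.

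Markers of other cells and stages differed between the same libraries. Of 12 eggshell genes, made by follicle cells, 5 were lower with uniquely mapped reads, and their summed level was 4598 normalized reads in homozygous and 14542 in heterozygous ovaries. Of 6 fat body markers, 4 were higher, with 727 normalized reads in homozygous and 49.7 in heterozygous ovaries. Of 10 muscle markers, 5 were higher, with 6935 in homozygous and 2610 in heterozygous ovaries. Of 4 hemocyte markers the collagen gene Cg25C was higher, with 670 in homozygous and 250 in heterozygous ovaries. These counts and levels are all from uniquely mapped reads, with which the authors called 0.515% of all entries higher and 0.137% lower. With up to 10 mappings, 4 muscle markers were higher, and the other counts were the same. Each sum holds only markers already called in its direction, so that direction was fixed by the call. Levels of the unlisted markers were not analysed here. None of the listed markers was at 0 in either library, and their part in the levels of Hsp70, Hsromega and Hsp26 was not tested. None of 5 germline and 6 follicle cell markers was listed, so the tissue label cannot be checked with them.

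Overlapping genes were few. The end of Hsp70Ab overlaps the gene CG3281 on the opposite strand, which was in no list, and the sources used here do not say whether strand was used in counting. The microRNA gene mir-4951 lies within Hsromega on the same strand but past the end of the listed transcript, from 21316716 to 21316865 in dm6. No annotated gene overlaps Hsp26 or the other Hsp70 copies.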

How the data were processed

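Total RNA of ovaries was sequenced after not-so-random priming, per the labels. Bowtie 0.12.8, TopHat 1.4.1, DESeq 1.8.2, bedtools and the build dm3 are named, without their roles, per the submitters' processing notes. The sources used here give neither read length nor counting rules. The authors deposited 5 lists of called features, of which 4 were used; the list of piRNA cluster strands was left out. Per the file headers, the signal values deposited are normalized read counts, as a mean and per library. The deposited fold is the ratio of the heterozygous to the homozygous value, as the authors head it, and was inverted here, and its log2 was deposited by the authors with the sign turned here. The p-values, raw and adjusted, are those of the authors, and none was computed here.

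Names that match no sample head 4 per-library columns of the lists for up to 10 mappings, which were not used. Levels were computed there from the authors' mean and fold. The log2 ratio differed between read treatments by -0.00585 for Hsp26 and by the same amount in 16 of 26 lower and 18 of 108 higher shared entries. Values of 1 read were 0.865 homozygous and 1.156 heterozygous with uniquely mapped reads, and 0.863 and 1.159 with up to 10 mappings. At a tolerance of 0.01 read, 286 of 286 and 780 of 780 values were whole reads; 4 entries without a finite ratio were left out. No count model was fitted to these reads, because only called features are listed. The intervals are Clopper-Pearson intervals on the reads, conditional on their sum (scipy 1.17.1). They were tested on simulated independent Poisson counts, the model they assume. The simulation held no read counted at several copies or repeats, so it does not cover that setting for Hsp70 and Hsromega. The number of entries adjusted together was the adjusted p times rank over the raw p, assuming Benjamini-Hochberg adjustment.

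Positions and lengths came from Ensembl release 115 (dm6), matched by identifier for 8 of 8 members and never converted from dm3. The members and gene lists were chosen with earlier results of these data known. Named are all members, listed genes of the heat shock, stress and marker lists, overlapping genes and the next features by mean in the same list; unlisted genes are named as examples.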

Additional observations from a re-analysis of the deposited data

How the results depend on the processing

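No paired analysis was possible because there was 1 library of each genotype, and no library could be left out. Of the 8 members, 7 were listed as higher with up to 10 mappings. The number was 3 where the authors' deposited table gives an adjusted p below 0.01 (Hsromega, Hsp70Bb and Hsp70Bc), and 2 with the Hsp70 copies counted once, an alternative chosen after seeing the data. With uniquely mapped reads it was 0, and the cause was not tested. The other 12 alternatives, pseudocounts of 1 and 10 among them, kept the direction and stayed within the counting interval or within 1.5 times the count. Several of them could not change a value. Each member had 1 entry per list, so taking every entry or their median repeated the main value. A mean of at least 50 could drop no member, since the lowest mean was 188. Hsp26 had the same reads with either treatment. The homozygous over heterozygous ratio of Hsp26 ran from 0.354 to 0.365, the median Hsp70 fold from 3.96 to 4.37 and the Hsromega fold from 2.69 to 2.70. The planned shares of windows that occur once in the genome, the identity of Hsp70 proteins and heat shock elements in promoters were not run, since no genome or sequence was used here. Depth limits the precision of the Hsp70 folds, which rest on 60 to 80 heterozygous reads.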
